A study of Homo sapiens with 18 samples.

Results

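Knockdown of Notch3 during EGFR inhibition was examined by setting HCC4006 cells that received Notch3 siRNA (N3) and erlotinib against HCC4006 cells that received non-targeting control siRNA (NTC) and erlotinib. HCC4006 is an established human lung adenocarcinoma line that carries an activating EGFR mutation, and erlotinib is a tyrosine kinase inhibitor of EGFR. The 6 arrays compared, 3 of each group, are among 18 arrays in 6 groups. The other groups were N3 with DMSO vehicle, Notch1 siRNA (N1) with erlotinib, N1 with DMSO, and NTC with DMSO. Erlotinib was given at 0.1 µM, and the series design gives 5 days of treatment, while the study's own account of these arrays gives a longer time. All cells, the NTC cells included, went through siRNA transfection with a lipid reagent, so every value is from transfected cells of 1 line. Each Notch gene was targeted with 1 siRNA duplex. Some labels call the siRNA groups knockouts, although siRNA lowers a transcript and leaves the gene intact. N3 erlotinib arrays are numbered 4 to 6 and NTC erlotinib arrays 1 to 3, so a difference in handling between these sets cannot be told apart from the siRNA. Nothing in the labels says that the 3 arrays of a group came from separate cultures, and p values then measure only the spread between arrays, which may be technical.

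Notch receptors are cut after a ligand on a neighboring cell binds them, and the freed intracellular part enters the nucleus, where it joins RBPJ and Mastermind proteins on genes such as the HES and HEY repressors. NOTCH3 is best known for its role in vascular smooth muscle, and it is also expressed in lung cancers. Cells that outlive EGFR inhibitors without a resistance mutation are called drug-persistent cells, and the study asked which transcripts depend on Notch3 in the first days of drug.

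Values are log2 levels that the authors obtained with robust multi-array average (RMA), so a difference of 1 is a factor of 2. Of 22465 genes with a feature that names them alone, 16336 passed a filter on low signal and were tested. A linear model in limma fitted the 6 group means over all 18 arrays, and p values were adjusted over all 16336 genes by the Benjamini-Hochberg procedure. A gene was called at an adjusted p under 0.05. Correlations between arrays of 1 group ran from 0.992 to 0.997 across features, and those between N3 and NTC erlotinib arrays from 0.991 to 0.996. Epithelial markers were measured on all arrays, with EPCAM, a surface protein of epithelial cells, at 9.44, 9.41 and 9.39 in N3 erlotinib arrays, against 9.46, 9.41 and 9.42 in NTC erlotinib arrays. Not all of them were level. Of 20 epithelial genes 5 were called lower, the keratins KRT18 (-0.51) and KRT8 (-0.38) among them, and 2 higher. Of 14 measured markers of other cell types, PTPRC, CD3E and LYZ of leukocytes, PECAM1 of endothelium and DCN and LUM of stroma stayed below the filter, and 8 passed it. Of these 8, CD68, a lysosomal protein used as a macrophage marker, was called higher, with 8.48, 8.53 and 8.63 in N3 erlotinib arrays, against 8.20, 8.21 and 8.14 in NTC erlotinib arrays (log2 fold change 0.36, adjusted p = 0.000611 from limma), and the other 7 (CD14, CDH5, VWF, PDGFRB, COL1A1, SYP and CHGA) had log2 fold changes from -0.04 to 0.01.

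With N3 in erlotinib, 1296 genes were called higher (7.93% of those tested) and 1721 lower (10.5%). Without N3 erlotinib replicate 4 the count of lower genes was 1099. Counts for gene lists in erlotinib stand against the shares of 7.93% higher and 10.5% lower over all genes. A count near those shares is no result about its list. Most changes were small. A fold change of at least 1.5 was reached by 99 genes called higher and 93 called lower, and one of at least 2 by 11 and 12. These last genes are also those past the thresholds of the study's methods, an unadjusted p under 0.0005 with a fold change of 2 (0.0673% of the genes tested higher and 0.0735% lower). The median log2 fold change over all genes was -0.01, and the standard error of a fold change had a median of 0.0589. All 3 N3 arrays lay above all 3 NTC arrays for 2464 genes (15.1%) and below them for 3051 (18.7%). Proliferation genes, the collagen receptor subunit ITGA11 and TGF-β target genes such as CCN2 lay at the lower end, and interferon-induced genes, FN1 and PTGS2 at the upper end.

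**Figure D1:**
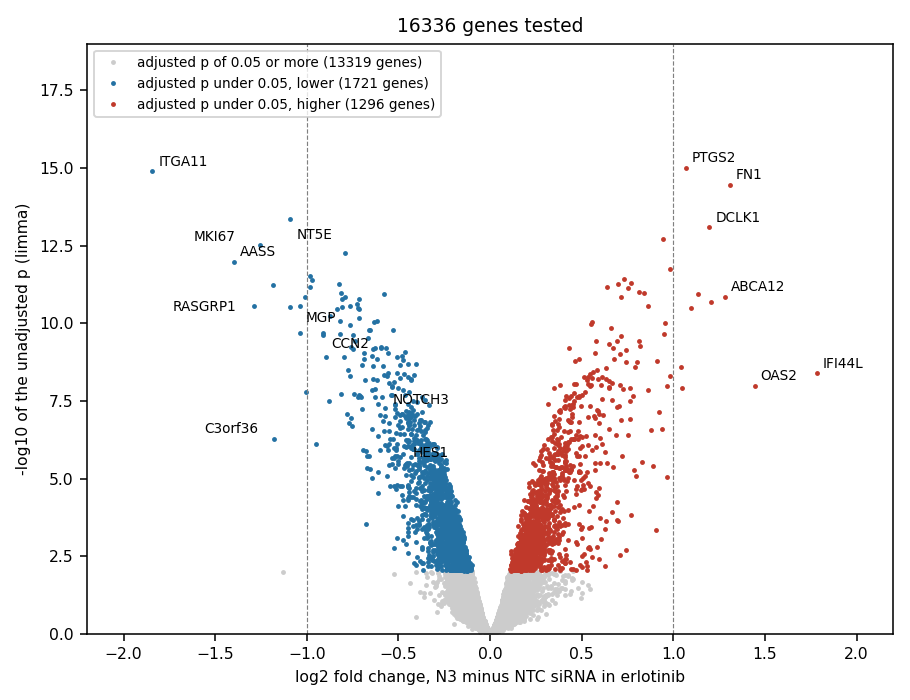
Log2 fold change of N3 over NTC in erlotinib (horizontal axis) against the -log10 of the unadjusted p from limma (vertical axis), 1 point per gene. Red points are the 1296 genes called higher, blue points the 1721 called lower and gray points the rest, and dashed lines mark a fold change of 2, which 11 genes passed upward and 12 downward.

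NOTCH3 itself was lower in N3 cells. Its log2 level was 6.49, 6.27 and 6.44 in N3 erlotinib arrays, against 6.95, 7.04 and 6.93 in NTC erlotinib arrays. No N3 array reached the lowest NTC array, and the log2 fold change was -0.57 (limma adjusted p = 4.11e-06, standard error, SE, 0.06). In DMSO the log2 fold change of N3 over NTC was also -0.57 (adjusted p = 5.75e-06 from limma), and the difference between the effects was -0.00 (SE 0.09, adjusted p = 0.987). N1 erlotinib arrays measured 7.28, 7.26 and 7.12.

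Few other receptors and ligands changed. Of 9 tested, 0 were called higher and 2 lower, NOTCH3 and DLL4, a ligand known from blood vessels, with a median of -0.05. DLL4 measured 5.67, 5.72 and 5.75 in N3 erlotinib arrays, against 5.86, 6.04 and 5.82 in NTC erlotinib arrays (log2 fold change -0.19, adjusted p = 0.0401 from limma), and this call was lost under 8 alternative settings. NOTCH1 was 6.66, 6.60 and 6.63 with N3, against 6.67, 6.67 and 6.65 with NTC, and NOTCH2 differed by -0.05 (adjusted p = 0.499). JAG1, a ligand widely expressed in epithelia, differed by -0.03 (adjusted p = 0.832). Of 16 genes for the proteases, sugar-adding enzymes and nuclear partners of Notch, 1 was called higher, NCSTN at 0.15, and 2 lower, SPEN at -0.17 and APH1A at -0.15, and each of these calls was lost under 4 to 7 settings.

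Among 12 Notch target genes, HES1 was the member called. HES1, a transcriptional repressor and the classical direct target, measured 6.77, 6.99 and 6.88 in N3 erlotinib arrays, against 7.46, 7.26 and 7.28 in NTC erlotinib arrays. The groups did not overlap, and the log2 fold change was -0.45 (limma adjusted p = 9.8e-05, SE 0.07). In DMSO, HES1 differed by 0.09 (adjusted p = 0.397), and the effects of N3 in erlotinib and in DMSO differed by -0.55 (adjusted p = 0.0014 from limma). The median of the 12 targets was -0.04. NRARP, a feedback inhibitor of Notch, had 4.79, 4.73 and 4.87 with N3, against 4.83, 4.58 and 4.09 with NTC, a spread in the control that exceeded its log2 fold change of 0.30 (adjusted p = 0.241). HEYL and HES4 differed by -0.02 and -0.18 (adjusted p = 0.911 and 0.0829).

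To show the DNA that the named regulators read, promoter windows of 300 bases (250 before the start site and 50 from it on) are given from RefSeq on GRCh38.p14 for genes that these results turn on, with matches to a motif in capitals. Both strands were searched, so a match can stand in its reverse complement, and 0 of the matches shown overlap another of the 4 motifs searched. The first is HES1 (chr3:194135898-194136197, plus strand), with its 1 match to the RBPJ site GTGGGAA. This site was present in 5 of 11 Notch target windows (45.5%). It was in 5.9% of the windows found for 11669 of the 16336 tested genes and in 6.28% of all 27305 windows searched, which did not cover every chromosome.
HES1: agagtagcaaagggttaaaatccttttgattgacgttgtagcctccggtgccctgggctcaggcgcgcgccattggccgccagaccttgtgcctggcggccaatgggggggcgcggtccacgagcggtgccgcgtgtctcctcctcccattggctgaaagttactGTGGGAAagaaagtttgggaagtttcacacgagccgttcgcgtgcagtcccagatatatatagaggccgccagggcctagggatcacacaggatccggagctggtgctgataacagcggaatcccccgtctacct

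The 15 lowest and 15 highest genes were taken from called genes whose groups do not overlap, so that separation was fixed by the rule. The 15 lowest fell into those for division, described next, and others for adhesion, metabolism and signaling. ITGA11, the α11 subunit of a collagen-binding integrin, was the lowest of all. It measured 5.69, 5.54 and 5.59 in N3 erlotinib arrays, against 7.56, 7.32 and 7.47 in NTC erlotinib arrays, a log2 fold change of -1.84 (limma adjusted p = 1.05e-11, SE 0.06). The N3 arrays stood close to the DMSO groups, whose means were 5.49 with N3 and 5.58 with NTC. AASS, the enzyme that opens lysine breakdown, had 7.56, 7.74 and 7.68 with N3, against 9.08, 9.01 and 9.09 with NTC (log2 fold change -1.40). RASGRP1, an exchange factor that loads Ras with GTP in response to diacylglycerol, had 7.52, 7.62 and 7.56 with N3, against 8.94, 8.77 and 8.85 with NTC (log2 fold change -1.29). Both genes were also lower with N3 in DMSO, by -0.42 and -0.85.

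NT5E, the surface enzyme CD73 that makes adenosine from AMP, measured 7.04, 7.17 and 7.17 in N3 erlotinib arrays, against 8.25, 8.15 and 8.25 in NTC erlotinib arrays (log2 fold change -1.09, limma adjusted p = 1.85e-10, SE 0.05). MGP, a secreted matrix protein that inhibits calcification, had 6.73, 6.70 and 6.75 with N3, against 7.81, 7.66 and 7.83 with NTC (log2 fold change -1.04). UGT2B15, which adds glucuronic acid to androgens and drugs, had 9.37, 9.37 and 9.39 with N3, against 10.40, 10.33 and 10.31 with NTC (log2 fold change -0.97). All 3 were higher with N3 in DMSO, as described with the DMSO comparison. UGT2B15 has close relatives such as UGT2B17 whose RNA could reach the same probes. DIO2, the deiodinase that makes active thyroid hormone, had 6.74, 6.81 and 6.84 with N3, against 7.86, 7.68 and 7.86 with NTC (SE of the fold change 0.10, limma adjusted p = 1.66e-06). C3orf36 had 5.73, 5.87 and 6.13 with N3, against 7.15, 7.02 and 7.10 with NTC (log2 fold change -1.18).

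**Figure D2:**
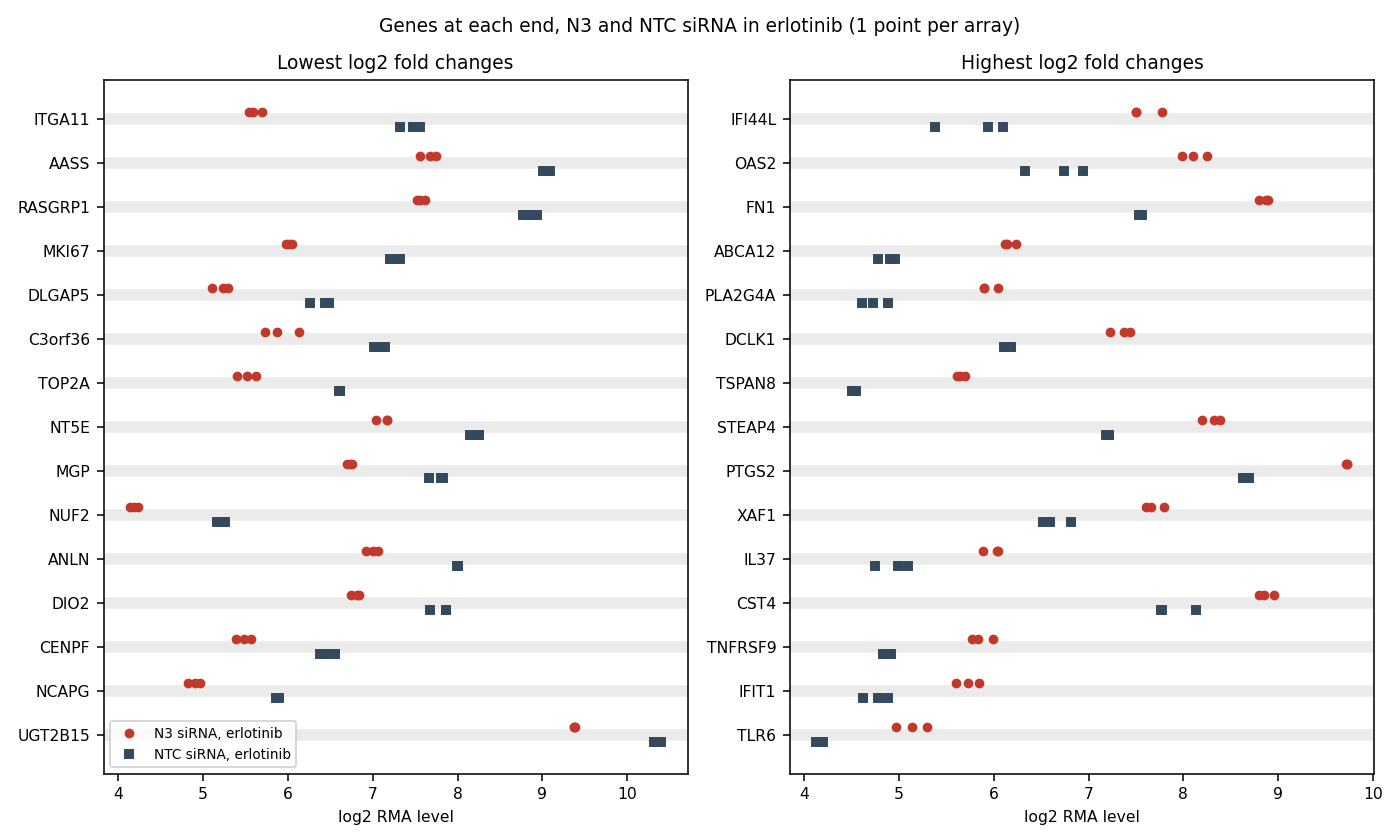
Log2 RMA levels (horizontal axes) of the 15 genes with the lowest (left) and the 15 with the highest (right) log2 fold change among called genes whose groups do not overlap, with red circles for the 3 N3 erlotinib arrays and dark squares for the 3 NTC erlotinib arrays. ITGA11 lies between 5.54 and 5.69 with N3, against 7.32 to 7.56 with NTC, and IFI44L shows the widest spread among the NTC arrays drawn at the upper end, 5.38 to 6.10.

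Genes of cell division were lower with N3 in erlotinib. Of 44 mitosis genes tested, 34 were called lower and 2 higher, with a median log2 fold change of -0.49 against -0.01 over all genes. MKI67, the proliferation antigen Ki-67, measured 6.01, 6.05 and 5.98 in N3 erlotinib arrays, against 7.20, 7.32 and 7.29 in NTC erlotinib arrays, a log2 fold change of -1.26 (limma adjusted p = 7.09e-10, SE 0.06). TOP2A, the topoisomerase that untangles sister chromatids, had 5.40, 5.62 and 5.52 with N3, against 6.60, 6.61 and 6.61 with NTC (log2 fold change -1.09). For both genes the groups stood far apart against the spread within each. DLGAP5, a spindle protein, had 5.11, 5.24 and 5.29 with N3, against 6.44, 6.26 and 6.49 with NTC (log2 fold change -1.18), and NUF2, a kinetochore subunit, 4.23, 4.14 and 4.18 with N3, against 5.17, 5.23 and 5.26 with NTC (log2 fold change -1.04). With N3, NUF2 lay below the median signal of the arrays, which ran from 4.94 to 5.01 in these 6.

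Further members called lower included the cytokinesis scaffold ANLN (-1.01), the kinetochore protein CENPF (-0.98), the condensin subunit NCAPG (-0.98, outside the list), the kinases CDK1 and PLK1 (both -0.81), cyclin A2 (CCNA2, -0.78), the transcription factor FOXM1 (-0.55), cyclin B1 (CCNB1, -0.49) and the aurora kinases AURKA and AURKB (both -0.30). The 2 members called higher were KIF18A, a kinesin of chromosome alignment, and ECT2, an exchange factor of cytokinesis, both at 0.31 (adjusted p = 0.00265 and 0.00643 from limma). BUB1 and SPC25 differed by 0.03 and -0.03 and were not called.

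DNA replication genes moved the same way by smaller amounts. Of 32 tested, 24 were called lower and 0 higher, with a median of -0.22. DTL, which directs replication licensing proteins to degradation, measured 6.00, 6.08 and 6.11 in N3 erlotinib arrays, against 6.65, 6.73 and 6.75 in NTC erlotinib arrays (log2 fold change -0.65, limma adjusted p = 2.19e-07, SE 0.05). RRM2, a subunit of ribonucleotide reductase, and CDC6, which loads the MCM helicase, had log2 fold changes of -0.58 and -0.51. Of the helicase subunits, MCM7 (-0.29), MCM5 (-0.26), MCM2 (-0.22), MCM3 (-0.18) and MCM4 (-0.13) were called, and MCM6 (-0.13) was not. PCNA, the sliding clamp, had a log2 fold change of -0.20. Among 19 clustered histone genes 6 were called lower and 0 higher, and among 19 cyclins and their regulators 6 were called lower, CCNE2 lowest at -0.37, and 1 higher, RB1 at 0.18. Without N3 erlotinib replicate 4, 31 mitosis, 17 replication, 2 histone and 3 cyclin genes were called lower.

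These genes stood far lower in erlotinib than in DMSO, with a median log2 fold change of erlotinib over DMSO in NTC cells of -2.69 for mitosis and -1.66 for replication genes. MKI67 averaged 6.01 ± 0.04 in N3 erlotinib arrays and 7.27 ± 0.06 in NTC erlotinib arrays, against 10.24 ± 0.10 in N3 DMSO arrays and 10.38 ± 0.06 in NTC DMSO arrays (SD, n = 3 each). In DMSO, 0 of 44 mitosis genes were called higher and 6 lower with N3 (median -0.11, against 7.24% higher and 4.8% lower of all genes), and 0 of 32 replication genes either way by limma (median -0.00), of which 1 was higher and 0 lower at an unadjusted p under 0.05. The difference between the 2 effects was called for 25 mitosis genes toward lower and 1 toward higher in erlotinib, and for 10 and 0 replication genes, where 4.27% and 1.63% of all genes were called. In bulk RNA, fewer cells in division and less of these transcripts per dividing cell cannot be told apart.

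Promoters of this group carry 2 known elements. The cell-cycle homology region, or CHR, is read by the DREAM and MuvB complexes in genes of late cycle phases, and E2F sites by E2F proteins in genes of replication. MKI67 (chr10:128126374-128126673, minus strand) and DLGAP5 (chr14:55191536-55191835, minus strand) are shown as the lowest mitosis genes with a window, with 2 and 3 matches to the CHR letters TTTGAA. DTL (chr1:212035498-212035797, plus strand) and CDC6 (chr17:40287629-40287928, plus strand) are shown for replication, each with 1 match to the E2F letters TTTNNCGC. This pair was chosen by name, and RRM2 (-0.58) and MCM10 (-0.55) lay lower than CDC6 (-0.51).
MKI67: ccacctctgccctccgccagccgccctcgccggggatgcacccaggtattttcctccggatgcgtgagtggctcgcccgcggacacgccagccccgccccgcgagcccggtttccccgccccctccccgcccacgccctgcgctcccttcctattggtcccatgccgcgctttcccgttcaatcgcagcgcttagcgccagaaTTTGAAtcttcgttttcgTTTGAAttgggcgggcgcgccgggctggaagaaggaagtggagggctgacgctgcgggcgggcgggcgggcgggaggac
DLGAP5: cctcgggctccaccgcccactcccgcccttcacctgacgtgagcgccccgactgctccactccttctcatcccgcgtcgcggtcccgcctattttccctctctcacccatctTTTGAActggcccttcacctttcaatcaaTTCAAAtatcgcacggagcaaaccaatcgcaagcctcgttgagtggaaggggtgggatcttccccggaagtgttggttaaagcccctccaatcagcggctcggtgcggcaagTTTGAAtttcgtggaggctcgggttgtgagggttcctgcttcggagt
DTL: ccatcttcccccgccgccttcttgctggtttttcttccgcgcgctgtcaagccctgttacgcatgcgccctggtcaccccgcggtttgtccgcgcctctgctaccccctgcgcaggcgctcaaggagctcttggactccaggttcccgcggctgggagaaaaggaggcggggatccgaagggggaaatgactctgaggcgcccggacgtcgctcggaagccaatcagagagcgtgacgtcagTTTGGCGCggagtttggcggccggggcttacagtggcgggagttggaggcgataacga
CDC6: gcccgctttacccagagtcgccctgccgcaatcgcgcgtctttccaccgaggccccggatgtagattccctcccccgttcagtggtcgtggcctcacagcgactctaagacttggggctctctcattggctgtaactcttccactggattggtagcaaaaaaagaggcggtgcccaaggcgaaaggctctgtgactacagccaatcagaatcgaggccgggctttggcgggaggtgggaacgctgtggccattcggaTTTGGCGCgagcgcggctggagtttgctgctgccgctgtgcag

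The CHR letters were found in 21 of 28 windows of mitosis genes called lower (75%) and in 6 of 10 windows of the other mitosis genes (60%), against 9.67% of tested genes and 15.4% of all windows. The E2F letters were found in 15 of 21 replication genes called lower (71.4%) and in 6 of 7 others (85.7%), against 9.56% of tested genes and 6.9% of all windows. In both lists the motif was common among members that were called and among those that were not. A match is a run of letters and was not tested for binding.

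Genes of the matrix, of TGF-β signaling and of cell adhesion moved in both directions. More members were lower in most of these lists, as among all genes tested (10.5% lower and 7.93% higher). TGF-β is a secreted growth factor whose receptors phosphorylate SMAD proteins, which then switch on matrix genes. Of 20 TGF-β target genes 13 were called lower and 2 higher, with a median of -0.29. CCN2, a secreted matricellular protein, measured 7.80, 7.69 and 7.91 in N3 erlotinib arrays, against 8.80, 8.58 and 8.75 in NTC erlotinib arrays (log2 fold change -0.91, limma adjusted p = 5.71e-08, SE 0.07). COL4A1, a chain of basement membrane collagen, had 8.96, 8.99 and 9.02 with N3, against 9.82, 9.74 and 9.70 with NTC (log2 fold change -0.76), and its neighbor on the genome COL4A2 differed by -0.63. TSPAN2 (-0.84), PMEPA1 (-0.47) and TGFBI (-0.43) were also lower. The 2 members called higher were ITGAV at 0.15 and FN1, the fibronectin gene, which went strongly the other way.

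FN1 measured 8.80, 8.89 and 8.87 in N3 erlotinib arrays, against 7.56, 7.53 and 7.54 in NTC erlotinib arrays, a log2 fold change of 1.31 (limma adjusted p = 1.91e-11, SE 0.05). The gap between the groups was far wider than the spread within either. FN1 was higher with N3 in DMSO too, at 8.68, 8.70 and 8.58, against 7.03, 7.02 and 7.14 with NTC (log2 fold change 1.59). N1 erlotinib arrays had 7.74, 7.78 and 7.71.

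The signaling parts of the TGF-β pathway were lower for 9 of 26 members and higher for 4 (median -0.08). SMAD3, which carries the signal to the nucleus, had 7.65, 7.74 and 7.78 with N3, against 8.45, 8.39 and 8.40 with NTC (log2 fold change -0.69, adjusted p = 1.76e-07 from limma). TGFBR2, the receptor that binds the ligand, had a log2 fold change of -0.44, the decoy receptor BAMBI -0.63, the inhibitory SMAD7 -0.36 and the ligand TGFB1 -0.27. TGFB2, another ligand, had 11.04, 11.03 and 11.02 with N3, against 11.14, 11.16 and 11.18 with NTC, and missed the threshold (adjusted p = 0.0885). The coreceptor TGFBR3 (0.41) and the ligand-binding LTBP1 (0.34) were called higher.

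Integrins are paired α and β receptors for matrix. Of 17 subunits, 6 were called lower and 3 higher (median -0.02). The counts in this paragraph stand against 10.5% lower and 7.93% higher of all genes. Besides ITGA11, ITGB6, the β6 subunit of an epithelial receptor that activates TGF-β, had 7.17, 7.17 and 7.16 with N3, against 8.01, 7.91 and 8.02 with NTC (log2 fold change -0.81). ITGB3 (-0.60), ITGB5 (-0.37), ITGB1 (-0.22) and ITGB4 (-0.20) were the other 4 called lower, and ITGA2 (0.32), ITGB8 (0.30) and ITGAV (0.15) those called higher. Of 23 collagens 6 were lower, with COL4A3 at -0.48 and COL4A4 at -0.42 beside the pair above, and 2 higher, COL21A1 at 0.31 and COL12A1 at 0.25. Of 5 laminin chains 2 were lower, LAMB1 at -0.42 and LAMA4 at -0.16, and 0 higher. Of 14 matrix metalloproteases and their inhibitors 3 were called lower and 0 higher. MMP7, matrilysin, had 9.15, 9.20 and 9.32 with N3, against 9.69, 9.62 and 9.66 with NTC (log2 fold change -0.43, adjusted p = 1.84e-05 from limma). PLAU, the urokinase gene, ran the other way, with 9.31, 9.27 and 9.35 in N3 erlotinib arrays, against 8.65, 8.65 and 8.54 in NTC erlotinib arrays (log2 fold change 0.70). It is 1 of 6 genes of the plasminogen system, of which 4 were higher, SERPINB8 (0.37), SERPINB5 (0.30) and the receptor PLAUR (0.19) with it, and 1 lower, SERPINE2 at -0.21.

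YAP is the coactivator at the end of the Hippo pathway, and CCN2 and NT5E stand on its target list as well. Of 26 YAP targets 11 were called lower and 2 higher (median -0.13). IGFBP3, which binds insulin-like growth factors, had 8.87, 8.89 and 9.01 with N3, against 9.60, 9.57 and 9.57 with NTC (log2 fold change -0.66). ANKRD1, a common YAP reporter gene, had a log2 fold change of -0.28, tissue factor (F3) -0.51 and the kinase NUAK2 -0.70. FJX1 (0.60) and the stress gene GADD45A (0.61) were higher. Of 16 Hippo pathway components 4 were lower, lowest TEAD2 and WWTR1 at -0.24, and MOB1A was higher at 0.33 (10.5% lower and 7.93% higher over all genes).

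β-catenin, encoded by CTNNB1, carries Wnt signals to TCF factors and also links cadherins to actin. CTNNB1 had 6.53, 6.55 and 6.52 in N3 erlotinib arrays, against 6.91, 6.85 and 6.87 in NTC erlotinib arrays, a log2 fold change of -0.34 (limma adjusted p = 1.34e-05, SE 0.04). Of 24 β-catenin target genes 7 were called lower and 0 higher (median -0.06), and 4 were lower without N3 erlotinib replicate 4. DKK1, a secreted Wnt inhibitor that the pathway itself induces, was lowest, with an average of 9.02 ± 0.04 with N3 and 9.82 ± 0.05 with NTC (SD, n = 3 each, log2 fold change -0.80). MMP7, already given, EPHB3 (-0.37), FZD7 (-0.34), BIRC5 (-0.32), L1CAM (-0.27) and CCND1 (-0.15) were the others, and the call of FZD7 was lost under 7 alternative settings. AXIN2 and LEF1 lay below the filter. Of 34 components of the pathway 7 were lower, among them the receptors FZD6 (-0.31) and FZD1 (-0.26), and 2 higher. Over all genes 10.5% were lower and 7.93% higher.

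Markers of cell state were split, beside 10.5% lower and 7.93% higher over all genes. Of 20 epithelial genes 5 were lower and 2 higher, with keratins KRT18 at -0.51 and KRT8 at -0.38 and the splicing factor ESRP1 at -0.44 below, and the tight junction genes TJP1 at 0.25 and OCLN at 0.22 above. Of 17 mesenchymal genes 6 were lower and 2 higher. TNC, tenascin C, had 8.24, 8.39 and 8.33 with N3, against 9.18, 9.15 and 9.10 with NTC (log2 fold change -0.82), CDH2, N-cadherin, had a log2 fold change of -0.44 and vimentin (VIM) -0.20, while FN1 and SPARC (0.34) were higher. Among 17 genes of stem-like cells and aldehyde dehydrogenases 4 were higher and 1 lower. ALDH1A3 was the one lower, with 9.73, 9.77 and 9.79 with N3, against 10.13, 10.12 and 10.10 with NTC (log2 fold change -0.35, adjusted p = 2.58e-06 from limma), and ALDH3A1 (0.22), ABCG2 (0.16), PROM1 (0.14) and ALDH2 (0.13) were higher. The calls of ABCG2 and PROM1 were lost under 8 and 5 alternative settings. ALDH1A1, ALDH1A2 and NANOG lay below the filter and were not tested.

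**Figure D3:**
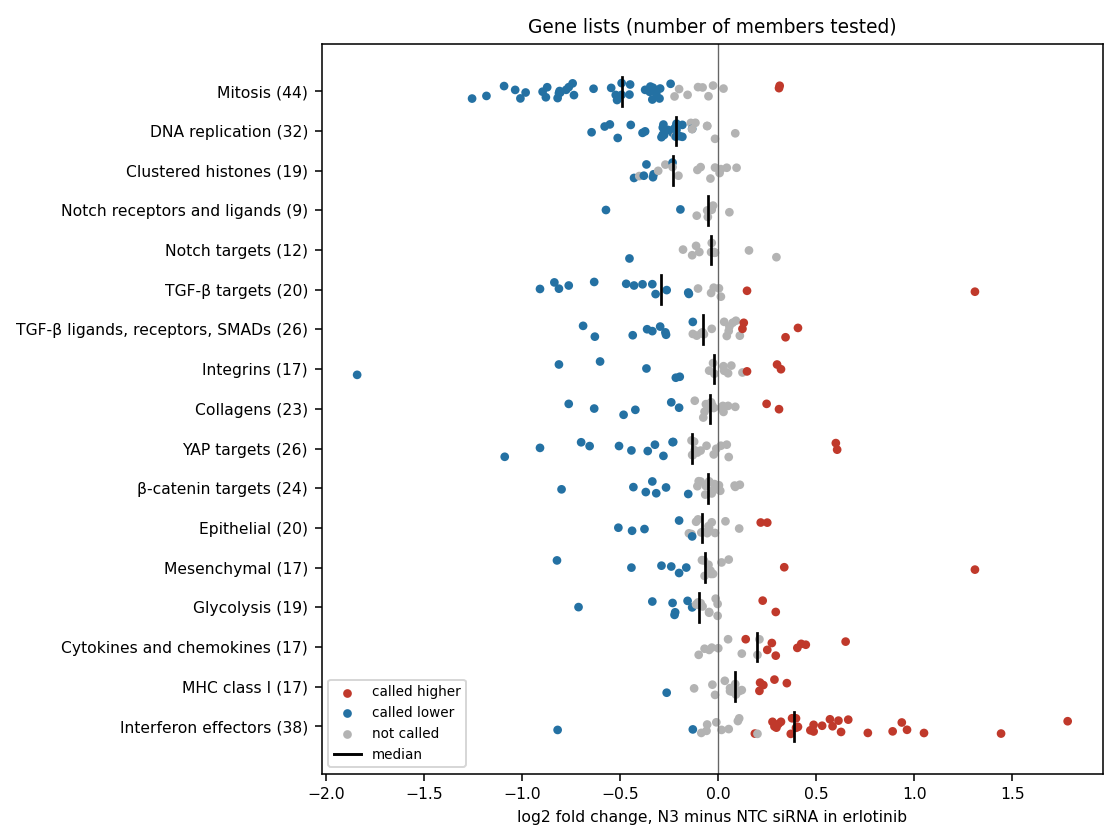
Log2 fold changes of N3 over NTC in erlotinib (horizontal axis) for the tested members of 17 gene lists (rows, with the number of members), 1 point per gene, with a black bar at the median. Blue points were called lower, red points higher and gray points not called, and mitosis (median -0.49) and interferon effectors (median 0.39) lie farthest from 0.

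At the upper end stood genes of the antiviral response. Interferons act through STAT factors to switch on many effectors against viruses, and foreign double-stranded RNA is among the triggers. Of 38 interferon effectors, 27 were called higher and 2 lower in erlotinib, with a median log2 fold change of 0.39. IFI44L had the highest fold change of all genes, with 7.50, 7.77 and 7.50 in N3 erlotinib arrays, against 6.10, 5.38 and 5.94 in NTC erlotinib arrays (log2 fold change 1.78, limma adjusted p = 5.87e-07, SE 0.16). OAS2, which makes the oligoadenylate that activates RNase L, had 7.99, 8.25 and 8.10 with N3, against 6.94, 6.33 and 6.74 with NTC (log2 fold change 1.44). IFIT1, which binds viral RNA caps, had 5.60, 5.84 and 5.73 with N3, against 4.88, 4.62 and 4.78 with NTC (log2 fold change 0.96). With NTC, IFIT1 lay below those arrays' median signals (4.94 to 4.99). In these genes NTC erlotinib replicate 2 was the lowest control array, and without it 21 effectors were called higher.

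XAF1 (1.05), RSAD2 (0.94), IFI44 (0.89), HERC6 (0.76), IFI6 (0.66), SAMD9L (0.63), OAS1 (0.61), the RNA-activated kinase EIF2AK2 (0.58), MX1 (0.41) and IFI27 (0.40) were among the others called higher. ISG15 (-0.06), IFITM3 (-0.06) and IFIT2 (0.05) were not called. The 2 called lower were IFITM2 at -0.13 and GBP2, a guanylate-binding protein, with 7.36, 7.48 and 7.43 in N3 erlotinib arrays, against 8.29, 8.21 and 8.23 in NTC erlotinib arrays (log2 fold change -0.82). Of 26 sensors, IRF and STAT genes 5 were higher and 0 lower, led by IFIH1 (MDA5, 0.51) and TLR3 (0.38), both sensors of double-stranded RNA.

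Interferon-stimulated response elements, bound by IRF and STAT proteins, were searched for as TTTC, any 2 bases and TTTC again. IFI44L (chr1:78620198-78620497, plus strand) and IFIT1 (chr10:89392373-89392672, plus strand) are shown, with 2 matches each, those of IFI44L in reverse complement. The letters were present in 15 of 22 windows of effectors called higher (68.2%), in 7 of 8 windows of the other effectors (87.5%), in 2.55% of tested genes and in 3.65% of all windows.
IFI44L: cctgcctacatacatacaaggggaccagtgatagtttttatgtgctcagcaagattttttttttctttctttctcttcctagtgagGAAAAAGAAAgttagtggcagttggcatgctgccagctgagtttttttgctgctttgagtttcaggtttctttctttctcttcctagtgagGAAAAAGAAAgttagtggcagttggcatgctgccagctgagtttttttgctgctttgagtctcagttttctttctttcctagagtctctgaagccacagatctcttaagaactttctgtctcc
IFIT1: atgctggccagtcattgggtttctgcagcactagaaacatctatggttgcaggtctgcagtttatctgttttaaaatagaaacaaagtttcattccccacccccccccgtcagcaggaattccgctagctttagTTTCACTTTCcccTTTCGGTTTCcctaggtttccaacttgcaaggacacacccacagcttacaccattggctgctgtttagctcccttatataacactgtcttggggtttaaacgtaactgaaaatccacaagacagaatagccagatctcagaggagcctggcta

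MHC class I genes, which display peptides to T cells, were higher for 5 of 17 members and lower for 1. HLA-B had 9.83, 9.85 and 9.93 with N3, against 9.57, 9.50 and 9.49 with NTC (log2 fold change 0.35, adjusted p = 6.36e-06 from limma), HLA-F had a log2 fold change of 0.29 and B2M, the shared light chain, 0.21, while the chaperone CALR had -0.26. The HLA genes are alike in sequence and could share probe signal. Of 17 cytokines and chemokines 8 were higher and 0 lower (median 0.20). TNFAIP3, a feedback inhibitor of NF-κB, had 6.55, 6.57 and 6.61 with N3, against 5.94, 5.85 and 5.99 with NTC (log2 fold change 0.65). The chemokines CCL2 (0.45) and CXCL5 (0.40) and the cytokine IL18 (0.42) were also higher. CXCL5 averaged 4.84 with N3 and 4.44 with NTC in erlotinib, below the median signals of these arrays (4.94 to 5.01).

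Other genes of the upper end had no part in these lists. PTGS2, cyclooxygenase 2, measured 9.71, 9.73 and 9.73 in N3 erlotinib arrays, against 8.69, 8.63 and 8.64 in NTC erlotinib arrays (log2 fold change 1.07, limma adjusted p = 1.05e-11, SE 0.04). PLA2G4A, the phospholipase that frees the arachidonic acid that PTGS2 uses, had 5.90, 6.04 and 5.90 with N3, against 4.73, 4.61 and 4.88 with NTC (log2 fold change 1.21). DCLK1, a kinase bound to microtubules, had 7.23, 7.44 and 7.37 with N3, against 6.18, 6.11 and 6.16 with NTC (log2 fold change 1.20). In all 3 genes the groups stood apart. ABCA12, a lipid transporter of skin, had a log2 fold change of 1.28, the tetraspanin TSPAN8 1.13, the metalloreductase STEAP4 1.10, the cytokine IL37 1.04, the salivary cystatin CST4 0.98, the costimulatory receptor TNFRSF9 0.98 and TLR6, a receptor for bacterial lipoproteins, 0.96. In NTC erlotinib arrays PLA2G4A, ABCA12, TSPAN8, TNFRSF9 and TLR6 averaged 4.74, 4.88, 4.52, 4.88 and 4.17, below those arrays' median signals (4.94 to 4.99). TLR6 averaged 5.14 with N3 in erlotinib and from 4.17 to 4.82 in the other groups. Of these means only the first exceeded the lowest array median, 4.84, so the filter may have kept TLR6 through the group where it is high.

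Growth factor signaling and metabolism gave smaller counts, many near the shares over all genes (7.93% called higher and 10.5% lower), and a count near those shares is no result about its list. Of 17 receptors that can bypass EGFR 2 were higher and 4 lower, and MET, the receptor of hepatocyte growth factor, had 8.26, 8.41 and 8.29 with N3, against 7.66, 7.65 and 7.75 with NTC (log2 fold change 0.63, adjusted p = 4.02e-07 from limma). Of 25 genes read as ERK output 5 were lower and 1 higher, with EPHA2 at -0.43 and EGR1 at -0.35, and of 7 ERBB ligands and receptors 2 were lower and 1 higher. Of 15 Ras exchange factors and GAPs 4 were lower, RASGRF2 at -0.64 next after RASGRP1, and 1 higher. Glycolysis genes were lower for 7 of 19 and higher for 2, and PFKFB3, which makes the main activator of phosphofructokinase, had 8.37, 8.44 and 8.52 with N3, against 9.21, 9.13 and 9.13 with NTC (log2 fold change -0.71). Sterol synthesis genes were lower for 5 of 18 and higher for 1, with INSIG1 at -0.50. ATF4 and stress genes were higher for 4 of 23 and lower for 0. Of 20 p53 targets 4 were higher and 3 lower, with FAS at 0.46 and TP53INP1 at -0.71, and of 13 BCL2 family genes 0 were higher and 4 lower, with BMF at -0.36 and BAK1 at -0.33. NAPSA, an alveolar protease, had a log2 fold change of 0.71, and 3 of 13 alveolar lineage genes were called higher and 0 lower. Of 12 genes of amino acid breakdown 3 were lower, with HADH at -0.49 and BCAT2 at -0.24 after AASS, and 4 higher, led by BCAT1 at 0.39. Of 3 genes of thyroid hormone handling 2 were lower, DIO2 and the receptor THRA at -0.28, and 0 higher. RNA interference genes were higher for 2 of 8, TNRC6B at 0.20 and TNRC6A at 0.19, and lower for 0. Of 8 housekeeping genes 3 were higher, GUSB highest at 0.43, and 2 lower, ACTB at -0.17 and GAPDH at -0.13.

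The effect of N3 was then set beside that in DMSO, which shares no array with it. In DMSO, 1183 genes were called higher and 784 lower with N3. The lower count was 506 without N3 DMSO replicate 3 and 429 with the 6 compared arrays alone, and these arrays with the replicate number as a block gave 537 higher and 214 lower, so the shares that follow rest on the fit of all arrays. Of the 1296 genes higher in erlotinib, 531 were higher in DMSO (41% of the genes higher in erlotinib and 44.9% of those higher in DMSO), and of the 1721 lower, 405 were lower in DMSO (23.5% and 51.7%). Across genes the log2 fold changes of both comparisons had Pearson's r of 0.485 and Spearman's rho of 0.376, over 16336 genes that are not independent replicates. The difference between the effects was called toward higher in erlotinib for 267 genes (463 after quantile normalization) and toward lower for 698. It was called in the direction of the erlotinib effect for 183 genes called higher and 402 called lower there.

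Opposite effects were seen in a few genes. MGP averaged 6.73 ± 0.03 in N3 erlotinib arrays and 7.77 ± 0.09 in NTC erlotinib arrays, but 9.43 ± 0.06 in N3 DMSO arrays and 8.26 ± 0.16 in NTC DMSO arrays (SD, n = 3 each). Its difference of -2.21 (adjusted p = 7.79e-10 from limma) was the lowest of all genes. NT5E averaged 7.13 ± 0.08 with N3 and 8.22 ± 0.06 with NTC in erlotinib, and 10.21 ± 0.03 with N3 and 9.93 ± 0.02 with NTC in DMSO (difference -1.37). UGT2B15, which DMSO cells hold at 5.70 with N3 and 5.35 with NTC, had a difference of -1.31. In all, 53 genes were called lower in erlotinib and higher in DMSO, and 19 higher in erlotinib and lower in DMSO. ITGA11 and DCLK1 moved in erlotinib, with differences of -1.76 and 1.13, while their log2 fold changes in DMSO were -0.09 and 0.07 (adjusted p = 0.405 and 0.449). CCN2, ITGB6, SMAD3 and PTGS2 had differences of -0.71, -0.51, -0.34 and 0.87, all called. COL4A1, lower by -0.76 in erlotinib and -0.80 in DMSO, had a difference of 0.04 (adjusted p = 0.845).

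The rise of interferon effectors with N3 was larger in DMSO than in erlotinib. In DMSO 35 of 38 were called higher and 1 lower, with a median of 0.67, and the difference was called for 20 toward lower in erlotinib and for 0 toward higher. IFI6 averaged 10.70 ± 0.11 with N3 and 10.04 ± 0.31 with NTC in erlotinib, and 10.50 ± 0.18 with N3 and 8.38 ± 0.13 with NTC in DMSO (SD, n = 3 each), so its NTC level was higher in erlotinib. IFI27 and IFI44L had differences of -1.30 and -0.87 (adjusted p = 6.76e-07 and 0.0287 from limma). FN1 also differed, by -0.28 (adjusted p = 0.0171 from limma).

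**Figure D4:**
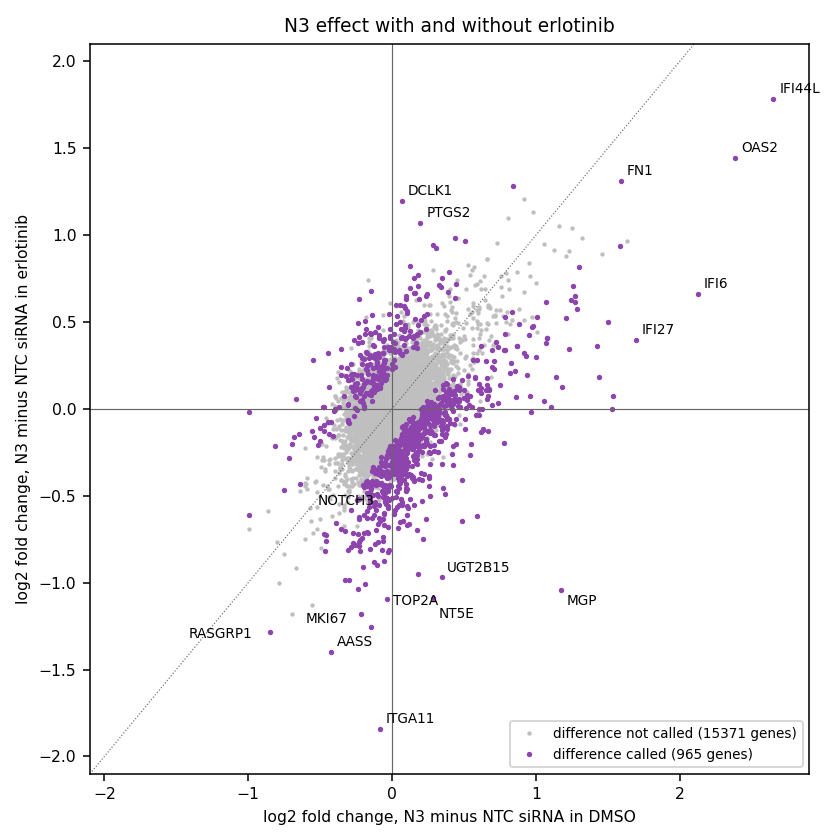
Log2 fold change of N3 over NTC in erlotinib (vertical axis) against that in DMSO (horizontal axis), 1 point per gene, with a dotted line where both are equal. Purple points are the 267 and 698 genes whose difference was called, with MGP and ITGA11 far below the line and DCLK1 above it, and IFI44L, OAS2 and FN1 high in both.

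**Figure D5:**
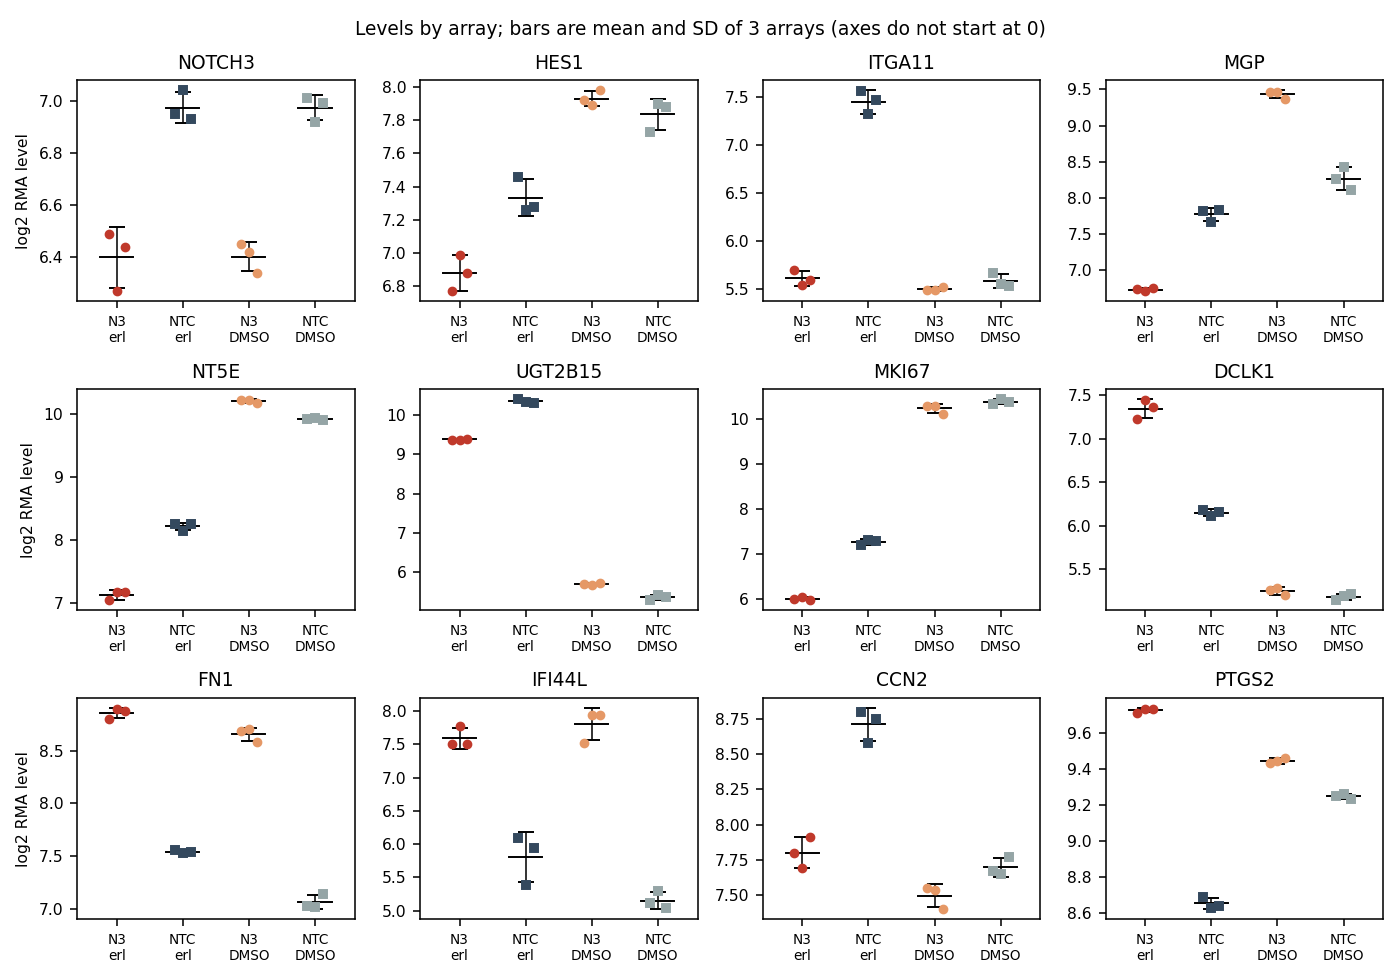
Log2 RMA levels (vertical axes, which do not start at 0) of 12 genes on each array of N3 and NTC cells in erlotinib (erl) and in DMSO, with bars at the mean and SD of 3 arrays. NOTCH3 is lower with N3 in both treatments, MGP and NT5E are lower with N3 in erlotinib and higher with N3 in DMSO, and ITGA11 with N3 in erlotinib lies near the DMSO arrays.

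The arrays labelled N1 in erlotinib gave a comparison with an siRNA directed at a related receptor. NOTCH1 measured 6.62, 6.59 and 6.54 on them, against 6.67, 6.67 and 6.65 in NTC erlotinib arrays, so the arrays did not overlap but the targeted transcript was not called lower (log2 fold change -0.08, adjusted p = 0.214 from limma). The label of this group is thus not borne out by a call on its target RNA. At the protein level, which arrays do not measure, the study reports Western blots with specific and apparently complete loss of each targeted receptor. Set directly against the arrays labelled N1 in erlotinib, 2253 genes were called higher with N3 (13.8%) and 3407 lower (20.9%). This comparison shares the N3 erlotinib arrays with the one against NTC, and N1 against NTC shares the NTC erlotinib arrays with it, so values are given side by side. Mitosis genes were lower with N3 than with N1 for 36 of 44 (median -0.60) and replication genes for 24 of 32 (median -0.25), and 1 of each list was higher. ITGA11 measured 6.38, 6.44 and 6.28 in N1 erlotinib arrays, between the N3 and NTC groups, and lay lower with N3 than with N1 by a log2 fold change of -0.76 (adjusted p = 1.6e-07 from limma). CCN2 had 9.31, 9.36 and 9.22 with N1, above both, and differed by -1.50 between N3 and N1. UGT2B15 had 8.83, 8.80 and 8.99 with N1, below both.

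Most interferon effectors were lower with N3 than with N1. Of 38, 24 were called lower and 1 higher, with a median of -0.28, and the median log2 fold change of N1 over NTC in erlotinib was 0.65. IFI44L measured 7.62, 7.61 and 7.63 in N1 erlotinib arrays and differed by -0.03 between N3 and N1 (adjusted p = 0.895 from limma). PLAU, at 9.27, 9.27 and 9.28 with N1, differed by 0.04 between N3 and N1 (adjusted p = 0.496). TNFAIP3 (0.65), CCL2 (0.49), HLA-B (0.37), GADD45A (0.70) and FAS (0.51) were also higher with N1 than with NTC in erlotinib. For none of them was N3 over N1 called. Of 17 MHC class I genes 0 were called higher with N3 than with N1 and 8 lower, and of 17 cytokines and chemokines 3 and 4. FN1 (1.11), DCLK1 (0.79), PLA2G4A (0.86), TSPAN8 (1.19) and PTGS2 (0.45) were called higher with N3 than with N1, as were IL37 (0.90) and CST4 (0.85). NT5E (-1.39), MGP (-1.54), RASGRP1 (-1.56), AASS (-1.22), COL4A1 (-0.79), SMAD3 (-0.61), MMP7 (-1.02) and HES1 (-0.53) were called lower with N3 than with N1. ABI3BP, a matrix-binding protein, lay lower with N3 than with N1 by -1.30, beside a log2 fold change of -0.15 over NTC.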

How the data were processed

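Total RNA of HCC4006 cells was hybridized to Affymetrix human transcriptome arrays, 18 in 6 groups of 3. The authors deposited log2 values made by robust multi-array average (RMA; version not given in the sources used here), with 70523 features. Each column was taken from its array's own label, and 0 columns of values were left out. Of the features, 23781 name 1 gene, 1543 several and 45199 none. The study's noise filter was taken as a value above an array's 50th percentile on at least 3 arrays, which 37493 features passed. For each gene the single-gene feature with the highest mean was kept. The analysis used R 4.3.3 and limma 3.58.1, with lmFit on 6 group means, contrasts and eBayes, and the steps were tested on simulated data. Arrays carry no read depth, and 3 per group limit the precision.

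Named genes were the 15 highest and 15 lowest called genes whose groups do not overlap, up to 4 called members of each of 40 lists with the largest change, the Notch receptors, ligands and targets, and genes the study names for these arrays. Further genes were named after their values were seen. The members and lists were chosen with earlier results of these data known. The lists overlap and hold 855 genes, of which 765 had a single-gene feature and 690 were tested. Some genes of the lists are not reported here. Alternatives were the filter, the features kept, the arrays in the model, quantile normalization, eBayes settings, each array left out, and a replicate block in DMSO. Those for list counts were chosen after seeing the data. Promoter windows came from RefSeq on GRCh38.p14, and not every chromosome was searched.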

Additional observations from a re-analysis of the deposited data

Results flagged for a closer look

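The effect of N3 over NTC differed between erlotinib and DMSO past an unadjusted p of 0.0005 and a fold change of 2 for 20 genes, tested by limma as the difference of both log2 fold changes, and these are given without explanation. Groups of 3 arrays are too small for a search for outlying arrays. In 6 of them the level was lower with N3 in erlotinib and the log2 fold change in DMSO was above 0, past the threshold in DMSO for all but UGT2B17 (0.18, adjusted p = 0.383). MGP had a difference of -2.21, with log2 fold changes of -1.04 in erlotinib and 1.17 in DMSO (adjusted p = 7.79e-10). NT5E differed by -1.37, UGT2B15 by -1.31 and its near-identical relative UGT2B17 by -1.13. GABBR2, a subunit of the GABA-B receptor, differed by -1.21, with log2 fold changes of -0.62 in erlotinib and 0.59 in DMSO (adjusted p = 2.31e-08), and SLC5A1, an intestinal glucose transporter, by -1.13, with -0.65 and 0.48. ITGA11 (-1.76), MKI67 (-1.11) and TOP2A (-1.06) were called lower in erlotinib and not called in DMSO.

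Other genes were higher with N3 in DMSO. The difference was -1.53 for the retinol dehydrogenase gene DHRS9, with log2 fold changes of 0.00 in erlotinib and 1.53 in DMSO (adjusted p = 1.32e-06), and its mean in erlotinib was 3.47 with N3 and 3.47 with NTC, below the arrays' median signal. It was -1.46 for PLAT, tissue plasminogen activator, with 0.08 in erlotinib and 1.54 in DMSO. TMEM100 (-1.25), KRT16P2 (-1.09), the prostaglandin dehydrogenase HPGD (-1.07), ITGA1 (-1.06), DMBT1 (-1.01) and the vitamin B12 carrier TCN1 (-1.0) followed. KRT16P2 is a pseudogene whose signal may come from keratin genes of like sequence. The interferon genes IFI6 (-1.46) and IFI27 (-1.30) were called higher in both treatments, by more in DMSO. DCLK1 was the gene with a difference above 0, at 1.13.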

How the results depend on the processing

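For named genes, 1813 values kept direction and call under the alternatives, 100 lost the call, 3 gained it and 0 reversed. NOTCH3 ranged from -0.62 to -0.51, with a highest adjusted p of 0.000962. No paired analysis was possible because N3 and NTC erlotinib arrays share no replicate numbers. In DMSO the numbers did not pair the arrays (correlations of deviations -0.105, 0.0274 and -0.185), and a fit of the 6 compared arrays with the replicate block called 537 genes higher and 214 lower. The same 6 arrays without the block gave 829 and 429, and all 18 arrays gave 1183 and 784. After quantile normalization 463 genes differed between treatments toward higher, against 267, and 39.6% of calls in erlotinib were higher, against 43%. The causes were not tested.

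With 1 array left out, genes called in erlotinib ranged from 887 to 1147 higher and from 1099 to 1804 lower, the lowest without N3 erlotinib replicate 4. Those in DMSO ranged from 831 to 1317 higher and from 506 to 744 lower, the lowest without N3 DMSO replicate 3, those for the difference from 194 to 309 and from 469 to 864, those against N1 from 1624 to 2362 and from 2330 to 3764, and those past the study's thresholds from 9 to 15 and from 10 to 14. Calls lost under 7 or 8 settings were those of DLL4, NCSTN, FZD7, LAMA4, LAMP3 and ABCG2.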

Other observations

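A group outside the lists, noticed after its values were seen, also lay higher. The SNORD113 and SNORD114 small nucleolar RNAs come from the imprinted DLK1-MEG3 cluster on chromosome 14, where they are processed from a long noncoding transcript. Of 35 tested, 33 were called higher with N3 in erlotinib and 0 lower, against 7.93% and 10.5% of all genes. The median log2 fold change of the 35 was 0.56, with a range from 0.29 to 0.91. The count includes SNORD114-27, with 5.16, 5.52 and 5.14 in N3 erlotinib arrays and from 3.87 to 4.64 on all others. Since the lowest array median was 4.84, the filter kept it only through the group where it is high. SNORD113-2, with 5.55, 5.73 and 5.72 against at most 5.04 elsewhere, may have been kept in a like way. SNORD114-2 measured 7.96, 8.29 and 7.91 in N3 erlotinib arrays, against 7.10, 7.38 and 7.19 in NTC erlotinib arrays (log2 fold change 0.83, adjusted p = 9.49e-05 from limma). SNORD114-10 had the largest change of them, with 5.49, 6.01 and 5.63 with N3, against 4.66, 5.00 and 4.75 with NTC (log2 fold change 0.91). In DMSO 33 were called higher (median 0.67, against 7.24% of all genes), and 29 were higher with N3 than with N1 in erlotinib (median 0.51, against 13.8%). Members of these families are alike in sequence and can share probe signal. MEG3, the long noncoding RNA of the cluster, had 9.40, 9.38 and 9.40 with N3, against 9.04, 8.97 and 9.02 with NTC (log2 fold change 0.38), while DLK1 differed by -0.08 (adjusted p = 0.426) and MEG9 by 0.08 (adjusted p = 0.404). In erlotinib MEG3 also lay higher with N1 than with NTC, by 0.30, and N3 over N1 was not called (0.09, adjusted p = 0.073 from limma). The 15 tested SNORD116 genes, an imprinted family of chromosome 15, had a median of 0.02 and a range from -0.09 to 0.21, with 0 called in erlotinib. Of these 15, 3 were called higher with N3 in DMSO (median 0.16), and 1 was higher with N3 than with N1 in erlotinib (median 0.17).

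Genes ranked just after those named at the ends included the mucin MUC21 (0.96), the protease genes CTSS (0.95) and ADAMTS9 (0.94), the complement factor CFI (0.91), the RNA helicase DDX60 (0.88), the actin-bundling LCP1 (0.86), the adhesion gene CEACAM5 (0.84) and the MET regulator MACC1 (0.82) upward, and the cadherin FAT3 (-0.91) downward.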
